A study of Homo sapiens with 15 samples.

Results

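In LNCaP cells kept without androgen, contacts seen through H3K27ac and contacts seen through H3K4me3 were compared loop by loop. The comparison took every chromatin loop of the series, 505995 of 505995 different anchor pairs, and set its vehicle value in the H3K27ac HiChIP against its vehicle value in the H3K4me3 HiChIP. The 505995 loops come from 574817 table rows, since 68822 loops were called for both marks and 227504 and 209669 were called for H3K27ac or H3K4me3 alone. LNCaP is an established prostate cancer cell line that responds to androgen. The cells were kept for 3 days in phenol red-free medium with charcoal-stripped serum, which removes steroids, and vehicle was ethanol. The other groups of the series, used here only for side-by-side values, were given the androgen DHT (dihydrotestosterone) at 10 nM, and were taken after 30 m, after 4 h, after 16 h and after 72 h. Vehicle has 2 labelled H3K27ac replicates and 1 labelled H3K4me3 replicate, but a single value per loop was deposited for each mark and the sources used here do not say whether both H3K27ac replicates entered it. No result below therefore has a replicate error or a p-value, and each interval is a 95% interval that covers counting error only.

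HiChIP joins DNA ends that lie close together in fixed nuclei and then pulls down the joined fragments with an antibody to a chosen histone mark, so a value rises both with the contact and with the mark at its ends, which cannot be told apart here. Nor can a contact made in few cells be told apart from a weak contact made in many. H3K27ac, written by the acetyltransferases p300 and CBP, lies at active enhancers and active promoters. H3K4me3, written by the SET1 and MLL methyltransferase complexes, is concentrated at the starts of genes, above all where the DNA is rich in CpG, and is scarce at enhancers, which carry H3K4me1 instead. In prostate luminal cells, FOXA1, HOXB13 and GATA2 act at enhancers. KLK3, KLK2 and TMPRSS2 are classic androgen-induced genes.

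The 200 bases before the gene start are shown for 2 promoters of each kind among those with the most different ranks in the 2 marks, as examples and not as typical of all called promoters, in 5′ to 3′ direction, with every CpG in capitals. They are taken from the 4 largest differences of each direction, and their bases before the start overlap no annotated exon. The coordinates and bases are those of hg19. The contacts of the first 2 genes were rich in acetylation, and their sequences held 2 and 0 CpG.
BCHE (chr3:165555251-165555450, minus strand): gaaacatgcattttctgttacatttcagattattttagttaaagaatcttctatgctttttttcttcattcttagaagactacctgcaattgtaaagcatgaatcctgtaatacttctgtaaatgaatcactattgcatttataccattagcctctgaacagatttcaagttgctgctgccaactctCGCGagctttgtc
UGT2B15 (chr4:69536371-69536570, minus strand): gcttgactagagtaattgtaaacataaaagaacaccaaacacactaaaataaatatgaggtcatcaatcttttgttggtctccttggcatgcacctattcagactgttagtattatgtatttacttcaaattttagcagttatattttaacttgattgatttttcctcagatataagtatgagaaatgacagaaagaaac
The contacts of the next 2 genes were rich in H3K4me3, and their sequences held 13 and 11 CpG.
GPATCH2L (chr14:76618059-76618258, plus strand): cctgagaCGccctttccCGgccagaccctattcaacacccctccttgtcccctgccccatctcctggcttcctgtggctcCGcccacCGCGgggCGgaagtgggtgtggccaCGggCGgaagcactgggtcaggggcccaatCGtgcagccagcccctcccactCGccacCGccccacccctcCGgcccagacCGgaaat
PHB1 (chr17:47492268-47492467, minus strand): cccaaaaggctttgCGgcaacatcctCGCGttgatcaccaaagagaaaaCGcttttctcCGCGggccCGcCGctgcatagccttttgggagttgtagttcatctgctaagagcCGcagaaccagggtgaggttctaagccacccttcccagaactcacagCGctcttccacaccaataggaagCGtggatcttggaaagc
KLK3, which encodes prostate-specific antigen, is shown with capitals for the letters AGAACA, the core of an androgen response element half-site, which occur once in either direction. These 200 bases held 1 CpG.
KLK3 (chr19:51357971-51358170, plus strand): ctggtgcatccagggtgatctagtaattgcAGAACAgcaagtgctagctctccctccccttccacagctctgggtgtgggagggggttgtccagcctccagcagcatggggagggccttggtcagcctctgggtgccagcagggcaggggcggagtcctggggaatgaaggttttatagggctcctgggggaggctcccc

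The vehicle values corresponded to 2475168 H3K27ac and 2567961 H3K4me3 read pairs, each loop counted once, with a median of 2 read pairs per loop in both marks. A loop was at 0 in 19.9% of cases for H3K27ac and in 25.8% for H3K4me3, so calls of single loops were made only from 20 read pairs in both marks together. All comparisons use the log2 ratio of a set's share of the H3K27ac read pairs to its share of the H3K4me3 read pairs, called the mark ratio below, where 0 means equal shares. Because the marks were scaled apart, promoters and anchors were also ranked within each mark, and a rank is given as a percentile. The tables hold a single mitochondrial loop, although mitochondrial DNA carries no histones, and it had the highest H3K27ac value of all loops (1193 read pairs) and the fourth highest H3K4me3 value (513 read pairs). Its mark ratio of 1.27 (1.12 to 1.42) in vehicle lay between 0.44 and 2.47 at the later times, and its part in the results was not tested. As a check of the cell type, the luminal marker genes KLK3, KLK2, KRT8, KRT18 and HOXB13 each had at least 56 read pairs in each mark, and the basal markers KRT5, KRT14 and TP63 had no loop at their outermost start. Of the markers of other cell types, CHGA and SYP (neuroendocrine) had at most 9 read pairs in a mark, and COL1A2 and PTPRC had no loop there. COL1A1 (83 and 67 read pairs), PDGFRA (8 and 16) and CD3E (30 and 22) had contacts.

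Loops without a coding promoter carried most of the H3K27ac contact and little of the H3K4me3 contact. An anchor counted as a coding promoter where a protein-coding gene starts within 2500 bp of any part of it. The 219873 loops with no coding promoter at either end held 54.8% of the H3K27ac read pairs and 21.8% of the H3K4me3 read pairs, a mark ratio of 1.33 (1.32 to 1.33). The 245539 loops with 1 coding promoter held 36.9% and 60.8%, a ratio of -0.72 (-0.72 to -0.72). The 40583 loops with a coding promoter at both ends, which can be that of the same gene, held 8.38% and 17.4%. Theirs was the lowest ratio of the 3 classes at -1.06 (-1.06 to -1.05). The largest share of H3K27ac read pairs went to contacts between distal sites, and that of H3K4me3 read pairs to contacts between a promoter and a distal site. In ranks, 72.3% of the loops without a promoter stood higher in H3K27ac than in H3K4me3, against 23.6% of loops with 1 promoter and 17.2% of loops with 2. These ranks took in all loops, also those under 20 read pairs. With ties averaged and fewer loops at 0 in H3K27ac (19.9% against 25.8%), a loop at 0 in both marks counted as lower in H3K27ac. The same order of the 3 classes held in the tables of the later times, with ratios of 1.13 to 1.51, of -0.79 to -0.61 and of -1.14 to -0.69. With a promoter window of 500 bp, which misses many starts (5168 promoters tested, against 13181), the ratio of loops without a promoter was 0.34.

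Over all loops the mark ratio was 0.16 (0.15 to 0.16) at 5 to 10 kb and -0.14 (-0.15 to -0.13) at 10 to 20 kb, and lay between -0.10 and 0.00 in every class from 20 to 1000 kb. It was -0.09 at 1000 to 3000 kb, and 0.68 there in loops called for both marks. Weighted by read pairs, the median loop length was 30 kb in both marks. Within an anchor class the ratio moved further. Among loops without a coding promoter it was 1.36 (1.36 to 1.37) at 5 to 10 kb and 1.16 (1.14 to 1.17) at 10 to 20 kb, and from there it was higher in each longer class, up to 1.71 (1.64 to 1.78) at 1000 to 3000 kb. Loops with 1 promoter were lowest at 10 to 20 kb (-0.88) and highest at 200 to 500 kb (-0.63). Loops with 2 promoters ran from -1.22 at 10 to 20 kb to -0.82 at 500 to 1000 kb. At every length the 3 anchor classes kept their order and their intervals did not overlap. At the 4 later times the ratio over all loops was 0.24 to 0.63 at 5 to 10 kb, -0.40 to -0.25 at 200 to 500 kb and -0.60 to -0.46 at 1000 to 3000 kb, and no test of a change was possible.

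**Figure D1:**
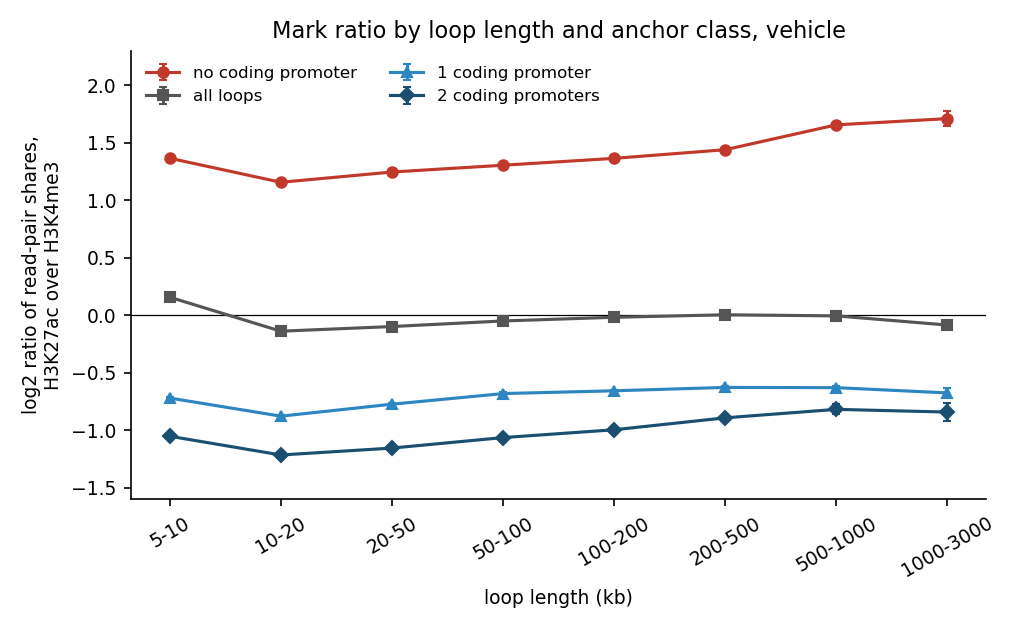
Mark ratio (log2 of the H3K27ac share over the H3K4me3 share of read pairs, vertical axis) in 8 classes of loop length in kb (horizontal axis), for all loops and for loops with 0, 1 or 2 coding promoters in vehicle. Bars are 95% counting intervals; loops without a promoter lie between 1.16 and 1.71 and loops with 2 promoters between -1.22 and -0.82.

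Promoters ranked much alike in the 2 marks. Of 20163 coding gene starts, 16095 had a loop and 13181 had at least 20 read pairs in both marks together, and the latter were ranked by the sum of their loops. Over these 13181 promoters Spearman's rho between the marks was 0.84, a description across promoters of the same deposited values, which share depth and many loops between neighbouring genes. The median mark ratio was -0.92 (quartiles -1.42 and -0.33), and 16.2% of promoters had a ratio above 0. The percentiles of the 2 marks lay less than 10 points apart in 52.3% of promoters. A promoter was called acetylation-rich or H3K4me3-rich where they lay 20 points or more apart. By this rule 1360 promoters (10.3% of those tested) were acetylation-rich and 1143 (8.67%) were H3K4me3-rich. Genes with the same loops count separately here, and the calls come from 1263 and 921 different sets of loops. MACROH2A1 lay just inside the acetylation call (83 and 81 read pairs) and WSB2 just outside it (291 and 305 read pairs, 19.97 points), and SAMD10 (106 and 356) and PRPF38B (145 and 528) just inside and outside the H3K4me3 call.

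Acetylation-rich promoters had a median of 150 H3K27ac and 119 H3K4me3 read pairs, H3K4me3-rich promoters 70 and 291, and promoters with neither call 79 and 165. Acetylation-rich promoters sent a smaller part of their contact to other promoters. The median share of the H3K27ac read pairs that went to another coding promoter was 14.3% for them, 24.8% for promoters with neither call and 26.5% for H3K4me3-rich promoters. In the H3K4me3 read pairs these medians were 23.0%, 29.3% and 25.2%. The direction of the calls was found again at the other times, which are not replicates of vehicle. The difference kept its sign in 98.2% to 99.2% of acetylation-rich and 98.0% to 99.0% of H3K4me3-rich promoters, and passed 20 points again in 65.3% to 73.5% and 54.8% to 65.4%. The gene start used is the outermost one of the annotation, and when all starts of coding transcripts of a gene were pooled 79.5% of the acetylation-rich and 91.3% of the H3K4me3-rich promoters were called again.

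**Figure D2:**
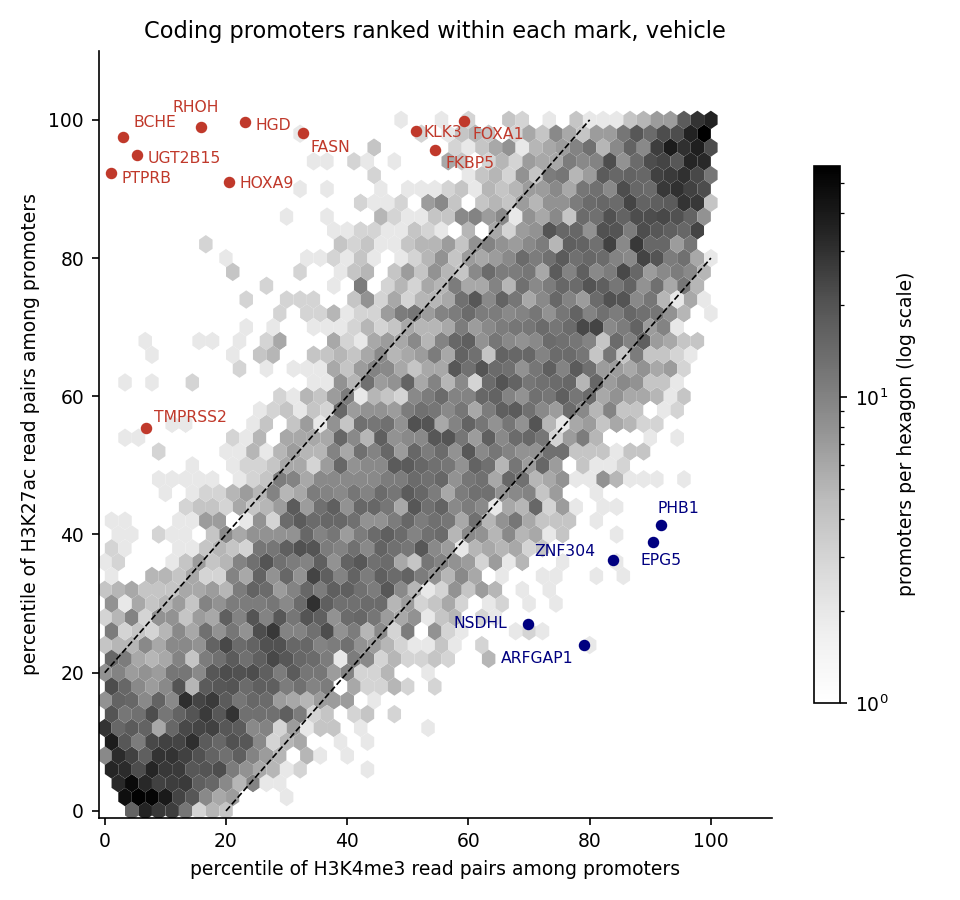
Percentile of each of 13181 coding promoters by H3K4me3 read pairs (horizontal axis) and by H3K27ac read pairs (vertical axis) in vehicle; grey hexagons count promoters on a log scale and the dashed lines mark a difference of 20 points. Named acetylation-rich promoters are red and H3K4me3-rich ones blue; BCHE, PTPRB and UGT2B15 lie at the top left, above the 92nd percentile of H3K27ac and below the 6th of H3K4me3.

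The promoter with the largest difference was that of BCHE, the gene of butyrylcholinesterase. Its 52 loops held 428 H3K27ac and 12 H3K4me3 read pairs, at percentiles 97.5 and 3.08, a mark ratio of 5.21 (4.39 to 6.17). PTPRB, a receptor tyrosine phosphatase known from endothelial cells, had 288 and 7 read pairs and the highest ratio of all promoters with at least 100 read pairs in the higher mark, 5.42 (4.35 to 6.74). Most of it came from a single 5 kb loop with 223 H3K27ac and 3 H3K4me3 read pairs, and PTPRB had 65 and 4 read pairs in loops of 20 kb or more. UGT2B15, an enzyme that conjugates androgens with glucuronic acid, had 335 and 16 read pairs (ratio 4.44, 3.72 to 5.26). Its contact reached far, and loops of 20 kb or more held 245 and 11 of these read pairs.

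The other promoters of this rank had at most 58 H3K4me3 read pairs. HGD, which breaks down homogentisate from tyrosine, had 786 and 58 read pairs over 61 loops (ratio 3.81, 3.43 to 4.22), and RHOH, a GTPase of blood cells, had 568 and 37 over 54 loops (3.99, 3.51 to 4.51). GDF15, a stress-induced cytokine, had 355 and 28 read pairs, of which 336 and 21 lay in 1 loop of 5 kb. GDF15 lost its call with all starts pooled (1047 and 549 read pairs, 9.25 points apart). NIPSNAP3B (322 and 24), the olfactory receptor gene OR51D1 (289 and 21), the interleukin-1 family gene IL1F10 (261 and 22) and the TNF family ligand TNFSF15 (253 and 28) completed the 10 largest differences, with ratios of 3.23 to 3.84. DIPK2B (144 and 7 read pairs), TCIM (141 and 10) and the metalloprotease gene TLL1 (188 and 14) entered by ratio (4.42, 3.87 and 3.80). At the 4 later times the ratio of each of these 13 promoters was above 0, with the lowest value at TLL1 (1.59).

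The largest differences toward H3K4me3, up to 55.0 points, were smaller than those toward H3K27ac, up to 94.4 points. ARFGAP1, which encodes an activator of the ARF1 GTPase and shares its loops with NKAIN4, had 36 H3K27ac and 360 H3K4me3 read pairs, at percentiles 24.1 and 79.1, a mark ratio of -3.27 (-3.81 to -2.77). EPG5, a tether in the fusion of autophagosomes with lysosomes, had 62 and 516 read pairs over 55 loops (-3.0, -3.41 to -2.62). GPATCH2L had 41 and 355 read pairs (-3.06, -3.56 to -2.59). PHB1, a prohibitin of the inner mitochondrial membrane, had 67 and 547 (-2.98, -3.36 to -2.61). These 4 promoters also kept their call in loops of 20 kb or more.

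The rest of the 10 largest differences toward H3K4me3 were those of DDX51, an RNA helicase that shares loops with NOC4L (54 and 422 read pairs), DNAI1 with FAM219A (52 and 391), CYFIP1 of the WAVE actin complex (47 and 361), the nucleoporin gene NUP155 (58 and 420), the zinc finger gene ZNF304 (57 and 411) and LYAR with ZBTB49 (38 and 303), with ratios of -2.94 to -2.80. The lowest ratio among promoters with at least 100 read pairs in the higher mark was that of DIS3, the exosome nuclease, whose start lies beside PIBF1 (13 and 140 read pairs, -3.38, -4.32 to -2.55). ZNF71 (17 and 176), ZNF330 (12 and 119), MAGEE1 (11 and 108), FAM210A with the cap methyltransferase gene RNMT (21 and 186), ZNF229 (15 and 131), the kinetochore gene ZWINT (22 and 192) and AMIGO1 (16 and 137) followed, with ratios of -3.32 to -3.04. At all later times the ratio of each of these promoters was below 0, with the highest value at AMIGO1 (-1.46).

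Among 15 gene lists, chosen with earlier results of these data known, androgen-induced genes had the highest median difference in vehicle by the sum of all loops. HOX genes stood above them by mean per loop (45.1 against 17.8 points), in loops of 20 kb or more (15.2 against 14.9) and at 16 h (21.7 against 10.7) and 72 h (18.8 against 13.2). Luminal transcription factors stood above them by mean per loop (25.2), and the 4 kallikreins tested there in loops under 20 kb (45.3 against 24.2). Of 26 tested promoters, 14 (53.8%) were acetylation-rich and 0 H3K4me3-rich, against 10.3% and 8.67% of all promoters, and the median difference was 22.4 points with a median ratio of 0.22, against -1.32 points and -0.92 over all 13181 promoters. TMPRSS2, a serine protease gene of the prostate, had the highest ratio of the list, with 98 and 18 read pairs (2.50, 1.76 to 3.31). TMPRSS2 is sensitive to the start used, since with all its starts the values were 459 and 319 (0.58, 24.8 points). KLK3 had 486 and 176 read pairs, at percentiles 98.4 and 51.3 (1.52, 1.27 to 1.78). KLK2, a neighbouring kallikrein protease, had 123 and 56 (1.19, 0.72 to 1.67; 346 and 102 with all its starts, 1.82), and 108 and 41 of these lay in the 5 kb loop that joins it to KLK3. FKBP5, a co-chaperone of steroid receptors, had 358 and 193 (0.94, 0.69 to 1.20), or 411 and 318 (0.42) with all its starts. SLC45A3 had 178 and 120 (0.62, 0.28 to 0.97) and UAP1, an enzyme of UDP-N-acetylglucosamine synthesis, 376 and 257 (0.60, 0.37 to 0.84).

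Not all of the list lay on the acetylation side. KRT8, whose start shares its loops with KRT18, had 512 and 903, at the same rank in both marks (percentiles 98.6 and 98.7), and EAF2, with 83 and 272 (-1.66, -2.03 to -1.30), was the lowest. In loops of 20 kb or more 11 of 25 promoters were acetylation-rich, with a median difference of 14.9 points. In loops shorter than 20 kb 15 of 24 were, with a median of 24.2. The median difference was lower in the later library pairs, at 10.7 to 16.9 points.

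The luminal transcription factors, a list that overlaps the androgen list in SPDEF among others, had high contact in both marks, with median percentiles of 97.4 for H3K27ac and 78.2 for H3K4me3. Of 12 promoters, 5 (41.7%, against 10.3% of all) were acetylation-rich and 0 H3K4me3-rich, with a median ratio of 0.20. With all transcript starts 3 of 14 were acetylation-rich, and in loops of 20 kb or more 3 of 11. FOXA1, a pioneer factor, had 923 and 218 read pairs over 63 loops, at percentiles 99.9 and 59.3 (2.14, 1.92 to 2.35), and 714 and 152 of these lay in loops of 20 kb or more. GRHL2, an epithelial factor, had 749 and 345 (1.17) and ELF3 222 and 146 (0.66). HOXB13 had 821 and 466 (0.87, 0.70 to 1.04), of which 417 and 289 lay in a single 5 kb loop to PRAC1 and PRAC2, and its loops of 20 kb or more held 9 and 16 (-0.78, -2.14 to 0.49). GATA2 had 279 and 317 (-0.13, -0.37 to 0.11) and XBP1 618 and 659 (-0.04, -0.20 to 0.12), and both intervals include 0. GATA2 rests on 2 loops at the start used, and with all its starts it had 1354 and 1689 (-0.27, -0.37 to -0.16). GATA3 was not tested, with 3 and 9 read pairs in 2 loops.

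HOX genes, which set position along the body axis, were at low percentiles in both marks (medians 37.3 for H3K27ac and 11.3 for H3K4me3). Yet by the sum of all loops they had the highest median ratio of the lists, 1.01. In loops under 20 kb the 4 kallikreins tested there stood above them (1.35 against 0.90). Of 22 promoters, 9 (40.9%, against 10.3% of all) were acetylation-rich and 0 (against 8.67% of all) H3K4me3-rich. The HOXA cluster held the extremes, with 270 and 49 read pairs at HOXA9 (2.52), 164 and 22 at HOXA6 (2.95) and 98 and 26 at HOXA10 (1.97). HOXA5 had the highest ratio (3.22, 1.52 to 5.59) on only 27 and 3 read pairs in 1 loop. HOXC genes lay on both sides, from 270 and 99 read pairs at HOXC5 (1.5) to 467 and 703 at HOXC4 (-0.54) and 11 and 28 at HOXC11 (-1.29, -2.45 to -0.24). Of other developmental regulators, 18 of 60 reached the minimum. Of those, 4 (22.2%, against 10.3% of all) were acetylation-rich and 0 (against 8.67% of all) H3K4me3-rich. Their median difference was 0.57 points, with 9 above and 9 below 0. By mean per loop 8 and 1 were called, against 2460 and 2724 of all 13181. The 4 included MEIS1, a cofactor of HOX proteins, with 317 and 111 read pairs over 110 loops (1.57, 1.25 to 1.89), and ZIC2 with 260 and 114 (1.24). NEUROG2 had the lowest ratio (-2.33).

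Promoters of the replication-dependent histone genes, which lie in clusters, also ranked higher in H3K27ac. Of 35 promoters, 12 (34.3%, against 10.3% of all) were acetylation-rich and 0 H3K4me3-rich, with a median difference of 14 points and a median ratio of -0.11. Many of these genes share their bins, and the 35 promoters stand for 23 different sets of loops, 9 of them acetylation-rich, against 1263 of 11487 sets over all promoters. The highest ratio was that of H4C1 and H3C1, which share all loops (121 and 57 read pairs, 1.14, 0.67 to 1.62). The lowest was that of H2BC6 (29 and 67, -1.16, -1.84 to -0.51).

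The zinc finger genes of chromosome 19, most of which encode KRAB repressors of transposable elements, were the most H3K4me3-rich list. Of 220 promoters 90 (40.9%, against 8.67% of all) were H3K4me3-rich and 5 (2.27%, against 10.3% of all) acetylation-rich, with a median difference of -15.3 points and a median ratio of -1.65. Their median was 249 H3K4me3 and 77.5 H3K27ac read pairs, against 170 and 85 over all promoters and 252 and 101 over the other coding promoters of chromosome 19. The H3K4me3 median was thus near that of the same chromosome and above that of all promoters, and the H3K27ac median was below both. ZNF71 (17 and 176 read pairs), ZNF530 (86 and 651, -2.87) and ZNF304 (57 and 411) were among the 90. The 5 on the other side were ZNF708, ZNF737, ZNF433, ZNF414 and ZNF91, with ratios of -0.01 to 0.21. ZNF787 had the highest ratio (458 and 359 read pairs, 0.40, 0.20 to 0.61), and ZNF470 the lowest on few read pairs (2 and 29, -3.80, -6.92 to -1.82). Chromosome 19 had the lowest mark ratio of all chromosomes (-0.86, against 0.76 on chromosomes 13 and 21). A coding promoter was in 80.6% of its loops, against 45.5% and 46.4% on chromosomes 13 and 21, and the part of this in the ratio was not tested. Among the other 869 coding promoters of chromosome 19, 11.9% were H3K4me3-rich, among 224 ZNF genes of other chromosomes 14.7%, and among the chromosome 19 list 40.9%. This comparison was added after the values of the list had been seen.

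**Figure D3:**
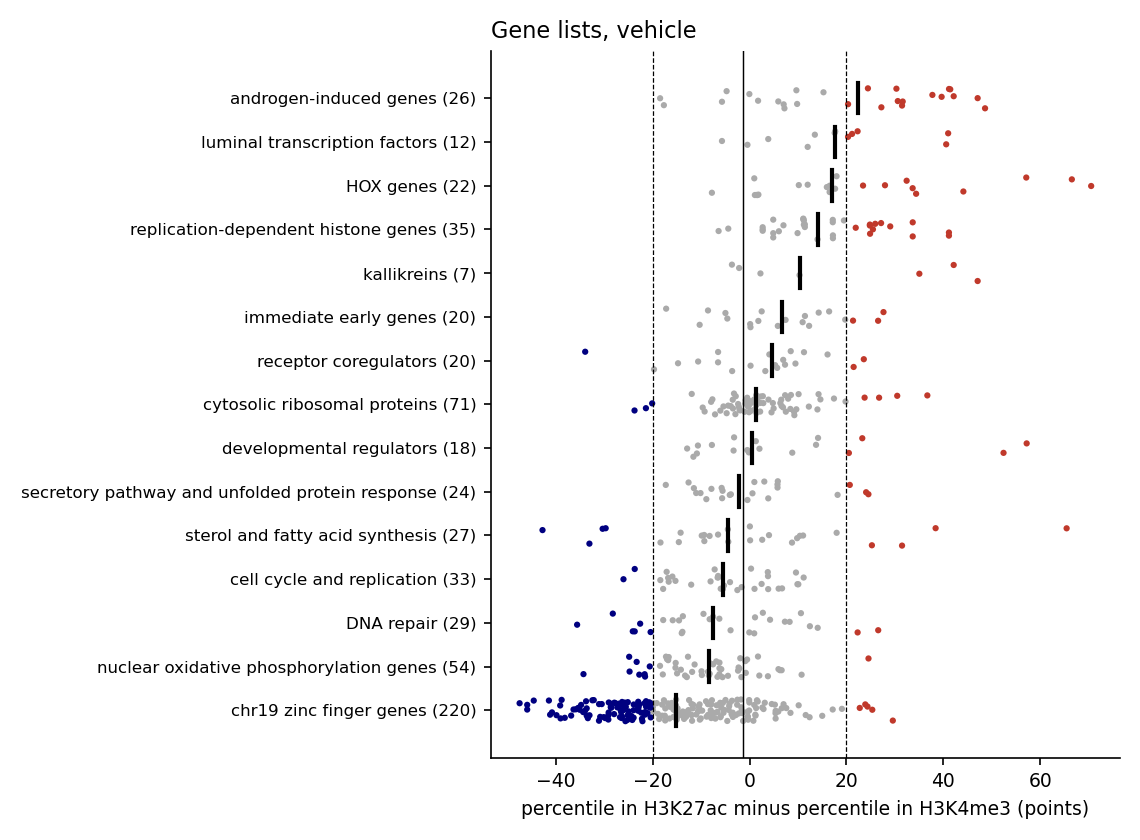
Percentile in H3K27ac minus percentile in H3K4me3 (points, horizontal axis) of each tested promoter of 15 gene lists in vehicle, with the number tested in brackets; black bars are list medians, the solid line is the median of all promoters (-1.32) and dashed lines mark 20 points. Medians run from 22.4 points for androgen-induced genes to -15.3 for chromosome 19 zinc finger genes.

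The counts of the lists that follow are to be read against 10.3% acetylation-rich and 8.67% H3K4me3-rich over all promoters, and those by mean per loop against 2460 and 2724 of 13181. Of 71 cytosolic ribosomal protein genes, 4 (5.63%) were acetylation-rich and 3 (4.23%) H3K4me3-rich (median 1.38 points, ratio -0.83), from RPS6 (300 and 203 read pairs, 0.62) to RPL36 (22 and 114, -2.32). RPL36 changed with the start used, to 280 and 684 (-1.24). Of 54 nuclear genes of oxidative phosphorylation, 1 was acetylation-rich, NDUFV2 (334 and 289 read pairs, 0.26), and 8 (14.8%) were H3K4me3-rich, with a median of -8.33 points and 46 of 54 below 0, and by mean per loop 19 were H3K4me3-rich. They included subunits of complex I such as NDUFB5 (55 and 284, -2.32), the succinate dehydrogenase genes SDHD (132 and 554, -2.02) and SDHA (58 and 223, -1.89), and CYC1 (154 and 646, -2.02). DNA repair genes (2 acetylation-rich and 6 H3K4me3-rich of 29, median -7.54 points) ran from PARP1 (15 and 6 read pairs, 1.38, -0.07 to 3.03) to FANCI (60 and 312, -2.33), and their H3K4me3-rich count was 12 by mean per loop and 10 in loops under 20 kb. Cell cycle genes (0 and 2 of 33, median -5.50 points) ran from BUB1 (30 and 38, -0.29) to AURKA (121 and 504, -2.01). Their H3K4me3-rich count was 10 by mean per loop and 8 in loops under 20 kb, and their median was -0.15 points in loops of 20 kb or more. GAPDH had the same rank in both marks, with 368 and 683 read pairs at percentiles 96.0 and 96.1, and RPLP0 had 256 and 374. EEF1A1, with 218 and 195, was acetylation-rich by 30.4 points.

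Of 27 sterol and fatty acid genes, 4 were acetylation-rich and 4 H3K4me3-rich (14.8% each, against 10.3% and 8.67% of all promoters), with a median of -4.39 points. By mean per loop 4 were acetylation-rich and 10 H3K4me3-rich. FASN, fatty acid synthase, had 462 and 94 read pairs in 5 loops (2.35, 2.03 to 2.69), and 489 and 142 with all its starts. SREBF1, the regulator of this pathway, had 888 and 320 (1.53), PMVK 124 and 70 (0.88) and ACSL3 177 and 157 (0.23). NSDHL, which shares its start with CETN2 (41 and 286, -2.75, -3.26 to -2.27), MVD (118 and 683, -2.48), HMGCS1 (45 and 222, -2.25) and ELOVL6 (59 and 267, -2.12) lay on the other side. Among immediate early, coregulator and secretory genes the acetylation-rich share (3 of 20, 2 of 20 and 3 of 24) lay near the 10.3% of all promoters, and nothing is read from these counts. Immediate early genes (3 and 0 of 20, median 6.63 points) ran from ATF3 (34 and 26 read pairs, 0.44) to FOSL1 (55 and 183). By mean per loop 6 were acetylation-rich and 1 H3K4me3-rich. With all its starts ATF3 had 184 and 258 (-0.43). Receptor coregulators (2 and 1 of 20, 4.68 points) ran from NCOA1 (26 and 21) to HDAC3 (89 and 436, with RELL2), and with all its starts NCOA1 had 270 and 142, 46.6 points apart. Secretory pathway genes (3 and 0 of 24, -2.15 points) ran from PDIA4 (101 and 92) to DNAJB9 (148 and 486, with PNPLA8 and THAP5). By mean per loop the counts were 2 and 4 for receptor coregulators and 5 and 4 for secretory pathway genes. Of 7 kallikreins (median 10.3 points), KLK3, KLK2 and KLK15 (222 and 173) were acetylation-rich, KLK4 had 266 and 372 read pairs, and KLK1, KLK10 and KLK12 had at most 35 in a mark.

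A panel of named genes was followed through the 4 DHT library pairs. FOXA1, TMPRSS2, FKBP5, HOXB13 and KLK3 had a ratio above 0 in all 5 pairs. FOXA1 lay at 2.14 in vehicle and between 0.97 and 2.73 later, TMPRSS2 at 2.50 and between 2.29 and 3.30, and FKBP5 at 0.94 and between 1.54 and 2.28, above its vehicle value at each later time. KLK2 and SLC45A3, above 0 in vehicle (1.19 and 0.62), had lowest values of -0.92 and -0.41 later, and UAP1, SPDEF, EEF1A1 and FOS also had a later value below 0. In the other direction XBP1, EGR1, GATA2 and ABCC4, below 0 in vehicle, had highest later values of 0.84, 0.75, 0.64 and 0.08. The vehicle intervals of SPDEF, EEF1A1, FOS, XBP1, GATA2 and ABCC4 included 0. So did the intervals of the later values on the other side of 0 at UAP1, FOS and ABCC4. No test of a change with time was possible, because each time has 1 value per mark. KRT5, TP63, ACTB, ETV1, ERG and PAX6 had no loop at the outermost annotated start, the only one counted for them.

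**Figure D4:**
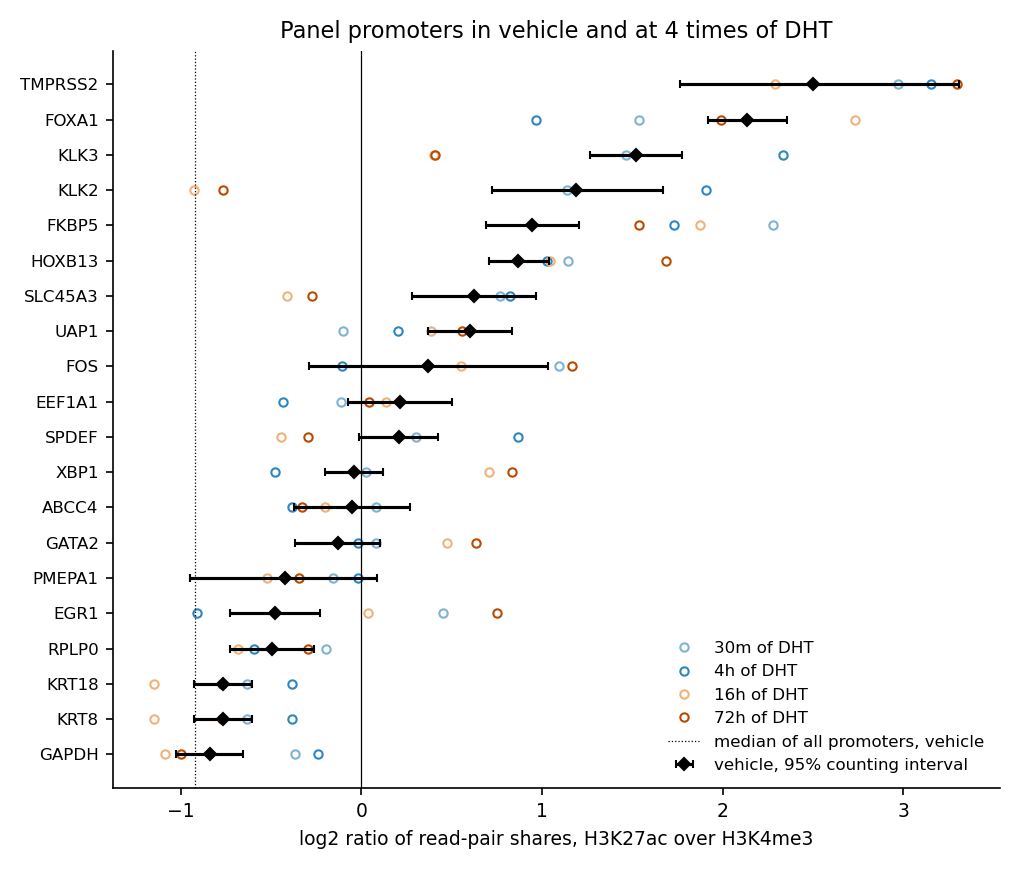
Mark ratio (log2, horizontal axis) of 20 panel promoters in vehicle (black diamonds with 95% counting intervals) and in the tables of 30 m, 4 h, 16 h and 72 h of DHT (open circles); the dotted line is the vehicle median of all promoters (-0.92). TMPRSS2 (2.50) and FOXA1 (2.14) were highest and GAPDH (-0.84) lowest in vehicle.

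The strongest loop of a promoter was mostly the same in both marks. Of 10342 promoters with at least 2 loops, 20 read pairs in each mark and no tie for the strongest loop, 7618 (73.7%, 72.8 to 74.5) had the same strongest loop, of a median length of 5 kb. In loops of 20 kb or more the share was 44.3% (43.2 to 45.4), on fewer read pairs per loop. The share was 66.2% (63.4 to 69.0) for acetylation-rich, 73.9% (73.0 to 74.9) for neither and 79.7% (77.0 to 82.1) for H3K4me3-rich promoters. Where the strongest loops differed, the H3K27ac one led to an anchor without a coding promoter in 74.9% of 2724 promoters, and the H3K4me3 one in 54.8%. HGD was such a case. Its strongest H3K27ac loop was one of 5 kb to a distal anchor (180 and 4 read pairs), and its strongest H3K4me3 loop was one of 60 kb to the shared promoter of RABL3 and GTF2E1 (29 and 12). At RHOH the 2 loops were one of 5 kb to a distal anchor (135 and 3) and one of 135 kb to N4BP2 (19 and 6).

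Distal anchors are those without a coding promoter. Of 193761 distal anchors, 67481 had at least 20 read pairs in both marks together, with medians of 27 H3K27ac and 18 H3K4me3 read pairs. Spearman's rho between the marks over these was 0.29, but their counts lie close to the minimum on the sum of both marks, which can lower rho, so it is not set against that of promoters. By the rule of 20 points 19410 (28.8%) were acetylation-rich and 19837 (29.4%) were H3K4me3-rich. The median mark ratio was 0.61, and 63.4% of anchors had a ratio above 0. Within 2500 bp of the start of a non-coding or other annotated gene, 20.9% of 7655 anchors were acetylation-rich and 32.3% H3K4me3-rich, and without such a start 29.8% and 29.0% of 59826. A split added after these values were seen set apart anchors at the start of another transcript of a coding gene. Among these 11692 anchors 14.9% were acetylation-rich and 36.8% H3K4me3-rich, with a median ratio of -0.13, and among the 49585 with no annotated start 32.7% and 27.3%, with a median of 0.82.

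Of the 10 distal anchors with the highest ratios, the one with the most read pairs lay in NAALADL2, at chr3:175207001-175208000. Its 114 loops held 1986 H3K27ac and 12 H3K4me3 read pairs (7.42, 6.62 to 8.38), and the ratio stayed between 4.55 and 6.42 at later times. It stands 1051 kb from the outermost start of NAALADL2, and 6 of its H3K27ac read pairs went to that promoter. The 10 kb loop from it to chr3:175197001-175198000 held 410 and 2 read pairs and had the highest ratio of all loops with at least 50 read pairs in the higher mark (7.73, 5.87 to 10.78). A mark at 0 was set to 3 read pairs in these rankings of anchors and loops, so that those at 0 in H3K4me3 can rank below others with 1 or 2 read pairs. The other 9 distal anchors with the highest ratios had 143 to 305 H3K27ac and 1 or 2 H3K4me3 read pairs. Of them 5 lay outside coding genes, with the cadherin gene CDH9 or the cell adhesion gene NCAM2 as the nearest coding start, such as chr5:27357001-27358000, 236 kb from CDH9 (193 and 1, 7.65, 5.15 to 12.96), and chr21:23772001-23773000, 1402 kb from NCAM2 (162 and 1). The anchor chr21:22732001-22733000 (283 and 2) lay inside NCAM2, and others in PLCB4 (176 and 1) and DCDC2C (291 and 2). Only 1 of the 10 lay at an annotated start, that in PLCB4.

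The 10 distal anchors with the lowest ratios had starts of coding genes 3.38 to 8.51 kb away, and 6 of the 10 lay at the start of another transcript of a coding gene. The lowest was in CACTIN, at chr19:3622001-3623000, 4.31 kb from the CACTIN start, with 12 H3K27ac and 173 H3K4me3 read pairs in a single loop to that promoter (-3.80, -4.78 to -2.95). The next were in GOLGA8B (chr15:34872001-34873000, 9 and 128), TMX3 (chr18:66377001-66378000, 8 and 101) and FAM210A (chr18:13722001-13723000, 9 and 111), with ratios of -3.78 to -3.57.

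Of 54045 loops with at least 20 read pairs in both marks together, 14767 (27.3%) had a ratio of 1 or more toward H3K27ac and 18740 (34.7%) of 1 or more toward H3K4me3. The balance depended on the rule, with 9591 and 5843 at a ratio of 2, and 4215 and 10492 in loops of 20 kb or more. The direction followed the anchor class. Toward H3K27ac lay 63.0% of loops without a coding promoter, 6.55% of loops with 1 and 1.98% of loops with 2, and toward H3K4me3 9.97%, 47.2% and 58.7%. All 10 loops with the highest ratios had no coding promoter, and 5 of them were 5 kb long. Besides NAALADL2 they lay in or nearest to ACKR3 (129 and 1 read pairs), DCDC2C (125 and 1), USP25 (112 and 1), PPFIA2 (111 and 1 at 120 kb, 107 and 1 at 15 kb), CHD1 (111 and 1), ADGRV1 (106 and 1), MIPOL1 beside FOXA1 and TTC6 (104 and 1 at 130 kb) and EVX1 beside the HOXA cluster (102 and 1). Of the 10 loops with the lowest ratios, 9 had a coding promoter. The first was a 10 kb loop of ZNF17 (2 and 68 read pairs, -5.03, -8.11 to -3.13), followed by a 30 kb loop between DMKN and TMEM147 (2 and 56) and a 30 kb loop between ZNF530 and ZNF211 (2 and 53). Others were at IPMK with CISD1 (2 and 53), FAM219A with DNAI1 (2 and 52), ARID3B (3 and 61), ZNF28 with ZNF468 (6 and 119), RECQL with GOLT1B (6 and 104) and ZWINT (4 and 69), and the exception without a promoter lay in AGO1 (3 and 70).

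The sequence of a promoter moved with its mark ratio at the low end of CpG content. Bases 250 before to 50 after each start were read from the reference for all 13181 promoters, and the count of CpG was divided by that expected from the C and G content. Of 5 equal groups by this measure, the lowest (0 to 0.50) had a median ratio of -0.50 (quartiles -1.19 and 0.38), and in the other 4 it lay between -1.02 and -0.98. The gap between the lowest and highest group was 0.52, and 0.16 in loops called for both marks, where the lowest had -0.79. Acetylation-rich calls made up 16.8% of the lowest group and 7.47% to 9.56% of the others, and H3K4me3-rich calls 3.94% of the lowest and 9.29% to 10.3% of the others. Promoters of the lowest group also had fewer read pairs, a median of 47 H3K27ac and 61 H3K4me3 against 105 and 220 in the highest. By GC content the lowest group likewise had the highest median ratio (-0.69), while the highest lay at -0.90. Spearman's rho with the ratio over promoters was -0.17 for CpG and -0.08 for GC content. Among acetylation-rich promoters 26.9% had an observed over expected CpG below 0.4, against 15.2% with neither call and 6.47% of H3K4me3-rich promoters.

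**Figure D5:**
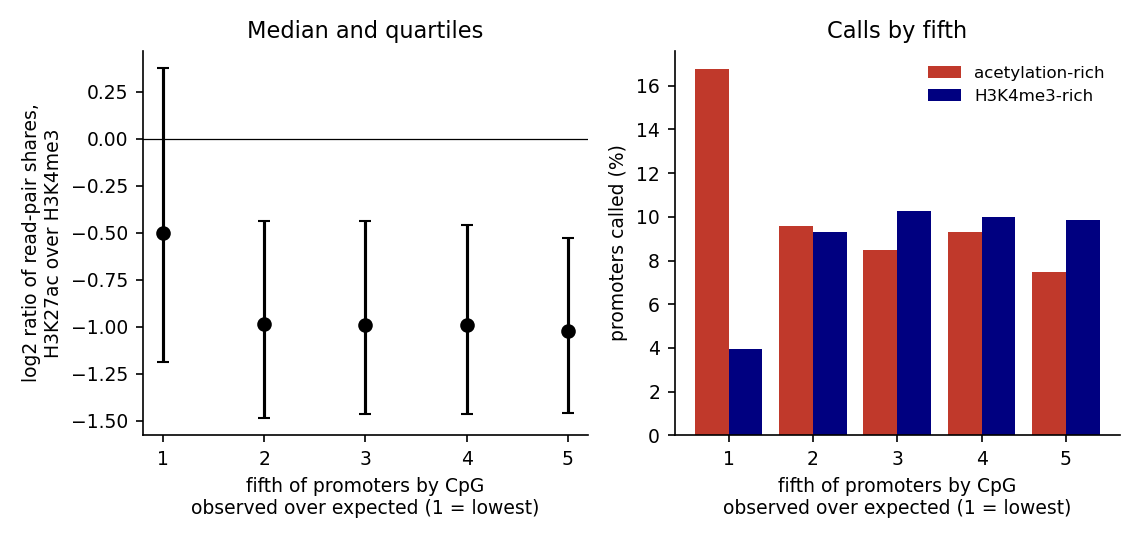
Left, median and quartiles of the mark ratio (log2, vertical axis) in 5 equal groups of 13181 promoters by observed over expected CpG (1 is the lowest); right, percent of each group called acetylation-rich (red) or H3K4me3-rich (blue). The lowest group stands apart, at a median of -0.50 and with 16.8% and 3.94% called.

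A set of 6 short motifs were searched in the same 300 bases on both strands, as exact letters, and a match describes letters and not a bound site. The TATA box letters TATAAA were in 11.2% (9.55 to 13) of acetylation-rich, 6.42% (5.97 to 6.91) of neither and 4.46% (3.34 to 5.83) of H3K4me3-rich promoters, against 6.74% of all. The ETS letters CCGGAAGT went the other way, with 2.87% (2.05 to 3.90), 7.24% (6.75 to 7.75) and 13.2% (11.3 to 15.3), against 7.31% of all, and the NRF1 consensus was in 1.03%, 2.05% and 3.50%, against 2.07% of all. The SP and KLF letters GGGCGG were in 53.0%, 64.4% and 66.2%, against 63.4% of all. The forkhead letters TGTTTAC were in 3.6% (2.68 to 4.74), 2.3% (2.03 to 2.61) and 1.75% (1.07 to 2.69). The androgen half-site letters AGAACA were in 11.3%, 10.4% and 9.80%, and those 3 intervals overlap, against 10.5% of all. The forkhead letters were in 2.39% of all. Of these motifs, CCGGAAGT, the NRF1 consensus and GGGCGG hold a CpG, and TATAAA and TGTTTAC are rich in A and T. No motif share was adjusted for CpG or GC content. The lower quartile of GC content was 51.6% in acetylation-rich and 57.3% in H3K4me3-rich promoters.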

How the data were processed

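The deposited values are a contact signal per loop, mark and time. Per the study's methods, the authors trimmed reads with Trim Galore 0.5.0, aligned them to hg19 with HiC-Pro 3.1.0 (Bowtie2), called loops by FitHiChIP in 5 kb bins on all times of a mark merged, and scaled the signal by TMM among the times of a mark. All values (100%, within 0.001 of a whole number) were multiples of 1 step, 0.294 for H3K27ac and 0.282 for H3K4me3 in vehicle, so read pairs were recovered by division. Gene starts came from Gencode v44lift37 and sequence from GRCh37. Percentiles average ties. Ratio intervals are exact conditional binomial, share intervals Clopper-Pearson. A mark at 0 was set to 3 read pairs in rankings. No count model was run, since a mark has 1 value per loop. Named promoters, anchors and loops are the 10 largest differences or ratios in each direction (at least 100 read pairs in the higher mark by ratio, 50 for loops; promoters that share over 50% of their loops, or anchors within 50 kb, or loops that share an anchor, once), a panel, and the extremes of each list. Members and lists were chosen with earlier results of these data known. Tools were scipy 1.17.1, pandas 2.3.3 and numpy 2.4.6 under Python 3.11.15, and the scripts were tested on simulated data. Some members of the lists and panel are not reported here.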

Additional observations from a re-analysis of the deposited data

How the results depend on the processing

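No paired analysis was possible because each mark has 1 deposited value per loop and the tables carry no replicate number, and for the same reason no replicate could be left out. The mark ratios of loops with 0, 1 and 2 coding promoters kept their sign and order under all 5 alternatives: 0.34, -0.85 and -1.06 with a 500 bp window, 1.39, -0.64 and -0.98 in loops of 20 kb or more, 1.19, -0.19 and -0.66 in loops called for both marks, 1.33, -0.71 and -1.05 with the deposited TMM values, and 1.23, -0.79 and -1.08 in loops with at most 50 read pairs in each mark. The ratio by length did not. At 5 to 10 kb it was 0.025 in loops called for both marks, 0.16 with TMM values and -0.72 in loops with 1 promoter. At 1000 to 3000 kb it was 0.68, -0.08 and -0.68. Acetylation-rich and H3K4me3-rich promoters numbered 2986 and 3304 at 10 points, 573 and 292 at 30 points, 2460 and 2724 by mean per loop, 522 and 451 with the 500 bp window (5168 promoters tested), 994 and 707 with no minimum and 1984 and 1956 by the strongest loop. They numbered 1595 and 1573 at 100 read pairs, 1210 and 1037 in loops of 20 kb or more and 1063 and 961 in loops called for both marks. Of the 1360 and 1143 promoters, 71.5% and 72.0% were called again in loops of 20 kb or more, and 53.8% and 54.1% in loops called for both marks. By ratio beyond the median by 1, a rule added after the data were seen, 1927 and 1123 were called, and 1513 and 1275 with all transcript starts, also added later. Distal calls numbered 5058 and 5175 at 100 read pairs and 12567 and 13251 in loops of 20 kb or more. Loop calls numbered 3236 and 6294 at 50 read pairs, 9591 and 5843 at a ratio of 2 and 4215 and 10492 in loops of 20 kb or more. The share of promoters with the same strongest loop was 44.3% in loops of 20 kb or more and 77.9% at 100 read pairs in each mark. The lowest of 5 CpG groups exceeded the highest by 0.52 in median ratio, by 0.39 in loops of 20 kb or more, 0.16 in loops called for both marks and 0.41 in loops under 20 kb (added later). HOX genes had 16 acetylation-rich promoters by mean per loop. The acetylation-rich counts of the androgen-induced, histone and HOX lists and the H3K4me3-rich count of the chromosome 19 list otherwise stayed within 1.5 times of those reported, while H3K4me3-rich androgen-induced promoters numbered 2 by mean per loop and 1 with all transcript starts. A median of 2 read pairs per loop limits single loops, and the cause of these differences was not tested.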
